A study of Mus musculus with 16 samples.

Results

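The genes described here are 35 nuclear receptors of the mouse that are classed neither with the steroid receptors nor with the retinoic acid receptors, measured by RNA-seq in the seminal vesicle (SV). They were taken as a list of gene symbols by receptor class, a list drawn up with earlier results of these data known although no measured value enters it, and all 35 were present among the 31274 genes of the expression table. Of these, 24 had a mean above 1 FPKM (fragments per kilobase of transcript, scaled to library size) in at least 1 group and were tested, and 11 lay below that level in every group. The study asked how neonatal exposure to the synthetic oestrogen diethylstilbestrol (DES) altered the male tract and which of its effects needed oestrogen receptor α (ERα, encoded by *Esr1*). Male C57BL/6 pups, either wild type (WT) or αERKO, received corn oil with DES at 2 µg per pup per day under the skin on days 1 to 5 after birth, or corn oil alone (veh). SVs were collected at week 5, and 4 samples were sequenced for each genotype and treatment (WT-veh and WT-DES, αERKO-veh and αERKO-DES), giving 16 in all. αERKO mice lack ERα in the whole body and from conception, so the genotype is not limited to the SV or to the days of exposure. Per the methods, WT pups came from purchased pregnant females and αERKO pups from breeding heterozygotes. Source of the mice and genotype therefore cannot be told apart. The methods describe RNA from pools of mice for WT-DES and from single animals for the other groups, while the labels list 4 WT-DES samples without saying which were pools. The p-values therefore measure the spread between these samples, and the spread within WT-DES may not be that between animals.

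Nuclear receptors are transcription factors that most often carry a DNA-binding domain and a pocket that can hold a small lipophilic ligand. The metabolic receptors are opened by fatty acids (PPARs), oxysterols (LXRs), bile acids (FXR), thyroid hormone (TRs) or vitamin D (VDR) and bind DNA together with a retinoid X receptor (RXR), whereas orphan receptors were named before any ligand was known and several act without one. Among the latter, REV-ERBs and RORs compete for the same elements in the circadian clock, NR4A receptors are immediate early genes, and COUP-TFs guide mesenchymal and vascular development.

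*Esr1* was at 3.87 ± 0.802 FPKM (SD, n = 4) in WT-veh and 14.3 ± 4.59 in WT-DES, against 1.52 ± 0.195 in αERKO-veh and 1.30 ± 0.334 in αERKO-DES. Every αERKO sample lay under every WT sample, although the gene was not read at 0. Library depth was estimated roughly, from the smallest FPKM step of short genes, at 14900000 to 20200000 fragments per sample. WT-DES differed from WT-veh in marker genes of cell types. All 11 leukocyte, all 6 fibroblast and all 6 endothelial marker genes were higher compared with WT-veh. All 8 genes for SV secretory proteins, which define this tissue, were lower, with a summed level of 2440 to 7950 FPKM against 49600 to 58000. All 4 prostate marker genes were also lower, with a sum of 27 to 369 FPKM in WT-DES against 3980 to 5200 in WT-veh, 4210 to 5520 for αERKO-veh and 3370 to 4390 for αERKO-DES. The part of tissue make-up in the receptor levels was not tested. In whole tissue a smaller number of cells of a type and less RNA per cell cannot be told apart. WT-DES sample 1 stood apart from the other WT-DES samples in smooth muscle markers, whose sum was 3730 FPKM there against 833 to 1310, so its effect on calls is given beside the receptors concerned.

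FPKM is scaled to transcript length, so levels can be set side by side between genes, but only roughly, since libraries differed in their trend on length (given below). In WT-veh the highest level was that of *Nr1h2* (LXRβ), at 95.7 ± 6.70 FPKM, followed by *Nr2f6* (the COUP-TF relative EAR2) at 76.7 ± 6.36, *Thra* (thyroid hormone receptor α) at 48.8 ± 1.42, *Ppard* at 37.9 ± 1.60 and *Esrra* (oestrogen-related receptor α) at 35.5 ± 2.98. The samples of *Ppard* and *Esrra* overlapped, and so did those of *Nr1d1* (REV-ERBα, 25.3 ± 2.33) and *Nr2f2* (COUP-TFII, 25.1 ± 1.21), while the first 3 genes were separate from each other and from the rest. Over the 4 groups, 15 of the 35 genes reached a group mean above 10 FPKM, 9 had their highest group mean between 1 and 10 FPKM, and 9 never reached a group mean of 0.15 FPKM.

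**Figure D1:**
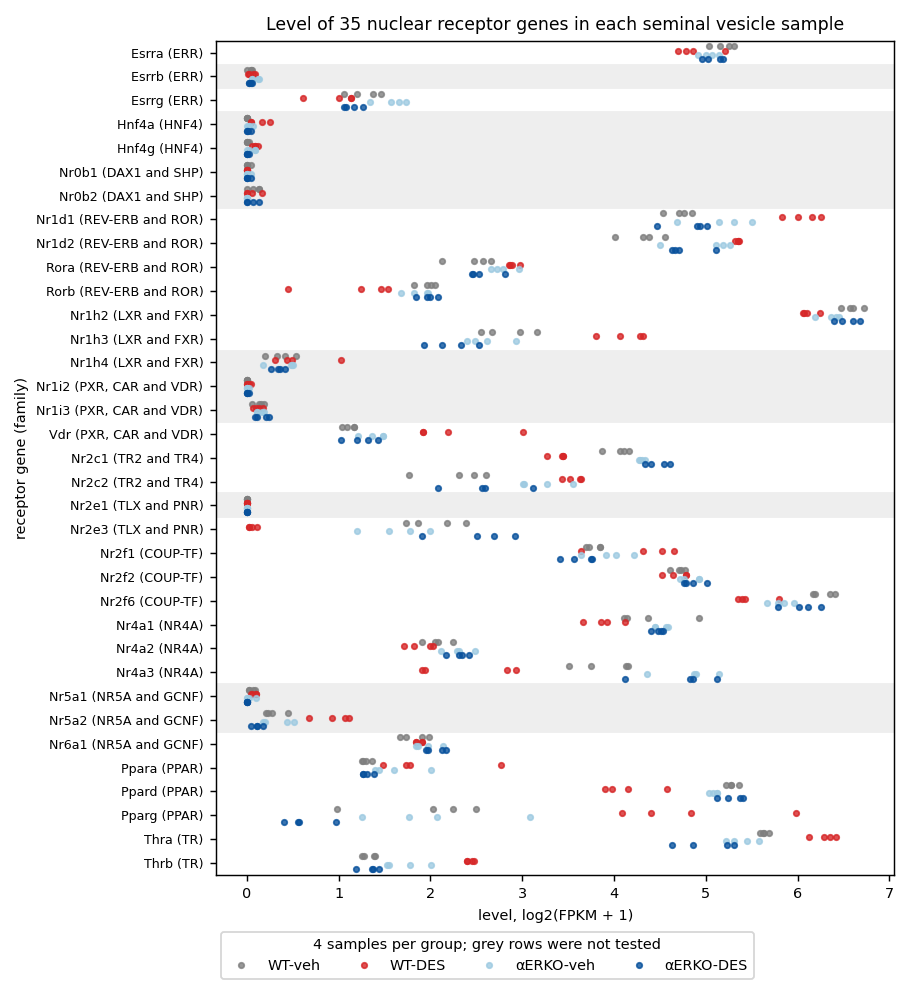
Level of each of the 35 receptor genes in each of the 16 samples, on a log2(FPKM + 1) axis, with 1 point per sample coloured by group and the receptor family in parentheses. The 11 genes on grey rows stayed at or under a group mean of 1 FPKM, and the WT-DES points of *Pparg*, *Nr1d1*, *Nr1h3* and *Thrb* lie to the right of all others in their rows while those of *Nr2e3*, *Nr4a3* and *Ppard* lie to the left.

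Differences were tested with limma on log2(FPKM + 1), and a gene was called when its Benjamini-Hochberg adjusted p over the 15988 tested genes was at most 0.05 and its mean FPKM differed by at least 1.5-fold with a mean above 1 FPKM in 1 of the groups compared. In WT-DES against WT-veh 9 of the 24 tested receptors were higher, 6 were lower, and 9 were not called. Over all genes tested, 28.9% were called higher and 23.9% lower in this comparison, so a wide change of the transcriptome was the background, and the receptor shares of 37.5% and 25% are to be read against it. The median size of the log2 change, either way, was 0.72 over the 24 receptors and 0.59 over all genes. In αERKO-DES against αERKO-veh only 1 receptor was called (*Nr2e3*, higher), against a background of 0.0876% of all genes called higher and 1.41% lower. At an unadjusted p of at most 0.05, 9 receptors (37.5% of those tested) passed there, as did 25.3% of all genes. The difference between these DES effects, WT minus αERKO, was itself called for 18 of the 24 receptors, 11 with a more positive and 7 with a more negative change in WT, against 29.6% and 26.9% of all genes. These 18 included all 15 that were called in WT and in addition *Nr1h2*, *Nr2f1* and *Rora*, of which *Nr1h2* and *Rora* lost that call after correction for transcript length. FPKM depends on the genes that take up most of the reads, and when each library was rescaled without its 20 top genes the median of all genes moved by 0.39 (log2) in WT-DES against WT-veh and by 0.51 in the difference between genotypes. On that scale 12 receptors were higher and 4 lower in WT-DES, with *Nr2c1* and *Nr2f6* no longer called, and the difference between genotypes was called more positive for 12 and more negative for 2.

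**Figure D2:**
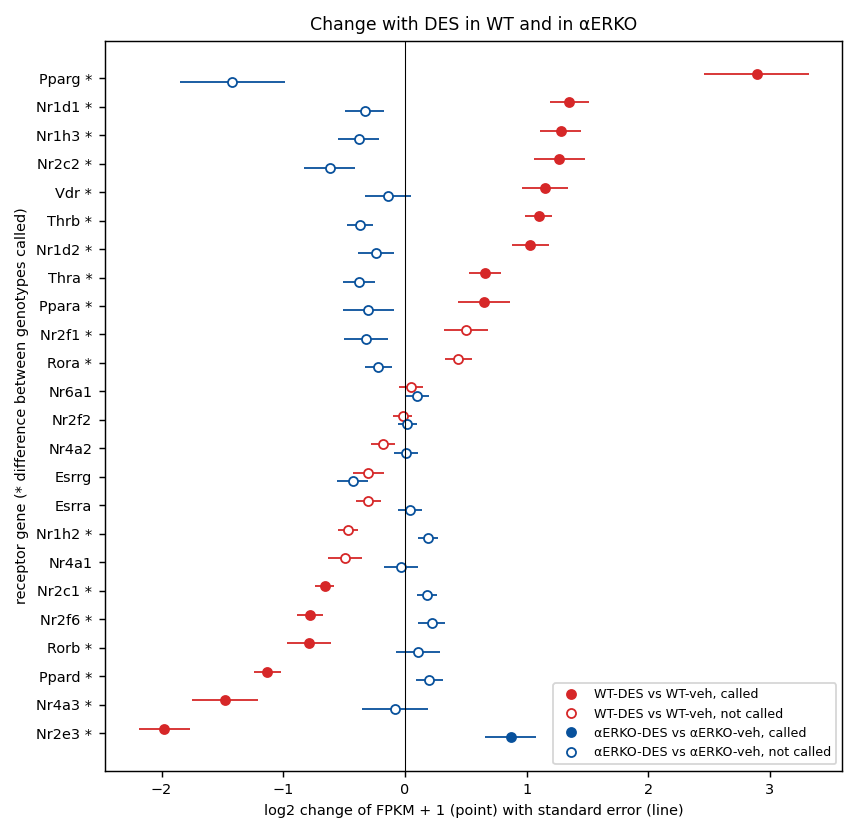
Log2 change of FPKM + 1 with DES (points, lines show the standard error) in WT and in αERKO for the 24 tested receptors, ordered by the change in WT, with filled points for called changes and a star where the difference between genotypes was called. The WT points run from -1.98 for *Nr2e3* to 2.89 for *Pparg*, whereas the αERKO points stay between -0.62 and 0.87 except for *Pparg* at -1.42.

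Of the fatty acid receptors, *Pparg* rose, *Ppara* rose to a lesser degree and *Ppard* fell in WT-DES. PPARγ is the receptor that drives fat cell differentiation and lipid handling in macrophages, PPARα promotes fatty acid oxidation, and PPARδ is expressed in most tissues. *Pparg* (chr6:115360951-115490399, plus strand, GRCm38) was at 3.07, 0.97, 3.73 and 4.64 FPKM in the samples of WT-veh, 62.28, 20.12, 16.04 and 27.63 in those of WT-DES, 2.39, 7.51, 1.38 and 3.20 across αERKO-veh and 0.48, 0.96, 0.47 and 0.32 across αERKO-DES. Each WT-DES sample was above every sample of the other groups, and WT-DES sample 1 was the highest by a wide margin. The log2 change in WT was 2.89 (SE 0.43, adjusted p = 2.4e-05, limma), and without WT-DES sample 1 it was 2.51. In αERKO the 4 DES samples all lay below the 4 veh samples, with a log2 change of -1.42 (SE 0.43) that did not pass the threshold (adjusted p = 0.0757), and the difference between the genotypes was 4.31 (SE 0.61, adjusted p = 1.9e-05). That αERKO change was called in 4 alternative fits, with a pseudocount of 0.1 (log2 change -2.32), with sample weights (adjusted p = 0.00138), without αERKO-veh sample 3 (adjusted p = 0.0467) and without WT-DES sample 1 (adjusted p = 0.0359), which takes no direct part in it but enters the common estimate of the spread.

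*Ppard* (chr17:28232700-28301474, plus strand) was at 37.62, 40.09, 36.25 and 37.7 FPKM in the samples of WT-veh, 22.86, 14.72, 13.89 and 16.72 in those of WT-DES, 32.74, 31.65, 33.7 and 33.77 across αERKO-veh and 41.39, 36.95, 40.35 and 33.87 across αERKO-DES. The WT-DES samples were the 4 lowest of the 16, and the log2 change was -1.13 (SE 0.11, adjusted p = 4.73e-07, limma), or -0.72 and still called without the 20 top genes. *Ppara* averaged 1.46 ± 0.0881 FPKM in WT-veh and 3.09 ± 1.83 in WT-DES, and its log2 change of 0.65 (SE 0.21, adjusted p = 0.0128) leaned on WT-DES sample 1, which read 5.80 FPKM where the other 3 read 1.80 to 2.43. Without that sample the log2 change was 0.37 and was still called (adjusted p = 0.0188), and under quantile normalization it was 0.16 and not called. In WT-DES *Pparg* stood at 31.5 FPKM on average and *Ppard* at 17.0, the reverse of their order in WT-veh, and *Pparg* was the higher in each of the 4 WT-DES samples.

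With DES, marker genes of fat tissue moved in the direction of *Pparg* in both genotypes, and those of leukocytes did so in WT. The 9 adipose markers summed to 226 to 1160 FPKM in WT-veh and 920 to 2180 in WT-DES, against 91.8 to 1180 for αERKO-veh and 17.5 to 62.9 for αERKO-DES, with 5 of the 9 called higher in WT-DES compared with WT-veh and 6 of the 9 called lower in αERKO-DES than in αERKO-veh. None of the 9 was at 0 throughout a group. The 11 leukocyte markers summed to 125 to 207 FPKM in WT-veh and 589 to 871 in WT-DES, against 84.6 to 127 for αERKO-veh and 77.6 to 109 for αERKO-DES. In αERKO none of them was called with DES (median log2 change -0.09). Within WT-veh, αERKO-veh and αERKO-DES the samples had the same order by adipose sum as by *Pparg*, and within WT-DES they did not, since sample 1, with the highest *Pparg*, had an adipose sum of 1220 FPKM. The part of either cell type in the change of *Pparg* was not tested.

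Genes that PPARs act on in other tissues were read from a list of 16 genes of fatty acid uptake, storage and oxidation. The list shares a gene with the adipose markers, so the lists are not independent. In WT-DES 8 of them were higher and 3 lower compared with WT-veh. *Plin2*, which coats lipid droplets, averaged 14.9 FPKM in WT-veh and 61.9 in WT-DES (log2 change 2.01), *Pdk4*, which restrains glucose oxidation, 3.69 and 15.4 (1.84), and *Cd36*, a fatty acid transporter that fat cells, endothelium and macrophages express, 14.1 and 49.3 (1.75). In αERKO 4 of the 16 were lower with DES and none higher, among them *Pdk4* (7.30 to 1.36 FPKM, log2 change -1.64) and *Cd36* (17.1 to 2.88, -2.01). The αERKO-veh samples spread widely for these genes, *Cd36* from 7.81 to 35.34 FPKM, whereas the αERKO-DES samples lay between 2.38 and 3.20. Beside the adipose markers, 6 of 11 skeletal muscle markers were called lower in αERKO-DES than in αERKO-veh (median log2 change -2.66), with sums of 598 to 861 FPKM against 757 to 2360, and muscle expresses *Pdk4* and *Cd36* too. The part of muscle in these changes was not tested.

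Of the oxysterol receptors LXRα and LXRβ, which switch on cholesterol export, LXRα rose in WT-DES and LXRβ was not called. *Nr1h3* (LXRα, prominent in macrophages, liver and fat; chr2:91184061-91202834, minus strand) was at 6.88, 4.84, 5.38 and 7.91 FPKM in the samples of WT-veh, 13, 18.43, 15.78 and 18.87 in those of WT-DES, 5.14, 6.64, 4.27 and 4.59 across αERKO-veh and 4.76, 4.02, 3.37 and 2.82 across αERKO-DES. The WT-DES samples did not overlap with any other group, and WT-veh and αERKO-DES did not overlap with each other. The log2 change with DES was 1.28 in WT (SE 0.17, adjusted p = 6.91e-06, limma) and -0.38 in αERKO (SE 0.17, adjusted p = 0.176), a difference of 1.66 (SE 0.24, adjusted p = 2.13e-05). *Nr1h2* (LXRβ) went from 95.7 ± 6.70 to 68.6 ± 4.36 FPKM in WT. All 4 WT-DES values were lower and the adjusted p was 7.52e-05, but the change stayed under 1.5-fold and was not called. Its log2 change of -0.47 was -0.05 on the scale without the 20 top genes and 0.09 under quantile normalization. *Nr1h4* (FXR) had its highest group mean in WT-DES at 0.51 ± 0.36 FPKM, where 1 sample read 1.04 and the others 0.24 to 0.41, and was not tested.

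Of 11 genes of the LXR and cholesterol export list, 10 were tested, and 5 were higher and 2 lower in WT-DES compared with WT-veh. *Abca1*, the cholesterol exporter that LXRs induce, averaged 4.14 ± 1.09 FPKM in WT-veh, 26.7 ± 2.87 across WT-DES, 6.79 ± 2.54 across αERKO-veh and 4.87 ± 0.899 across αERKO-DES (log2 change in WT 2.45, adjusted p = 9.02e-08, limma). *Abcg1*, the exporter to high-density lipoprotein, went from 1.82 to 7.90 FPKM (log2 change 1.64), and *Scd1*, a fatty acid desaturase abundant in fat, from 108 to 284 (1.51). In αERKO none of the 10 was called with DES by limma, and 2 passed an unadjusted p of 0.05. The leukocyte and adipose sums given for *Pparg* separated WT-DES from the other groups in the same way (for the adipose sum with overlap), and their part in these changes was not tested.

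The REV-ERB genes rose together in WT-DES. REV-ERBα and β are haem-binding repressors of the clock gene *Arntl*, and RORs activate the same elements. *Nr1d1* (REV-ERBα; chr11:98767932-98775333, minus strand) was at 27.73, 25.14, 22.18 and 26.09 FPKM in the samples of WT-veh, 75.16, 70.54, 63.37 and 55.86 in those of WT-DES, 34.44, 44.35, 24.69 and 38.49 across αERKO-veh and 28.82, 29.52, 21.2 and 31.24 across αERKO-DES. The WT-DES samples were all above the other 12, which overlapped between groups, and the log2 change in WT was 1.35 (SE 0.16, adjusted p = 2.19e-06, limma).

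*Nr1d2* (REV-ERBβ; chr14:18204054-18239127, minus strand) was at 22.46, 19.89, 18.92 and 15.08 FPKM in the samples of WT-veh, 39.64, 39.83, 40.18 and 38.82 in those of WT-DES, 35.45, 37.32, 21.68 and 33.43 across αERKO-veh and 23.78, 25.08, 24.41 and 33.42 across αERKO-DES. The WT-DES samples were again the 4 highest and lay close together, and of the other groups αERKO-veh sample 3 and αERKO-DES sample 4 lay outside the run of their group. The log2 change with DES was 1.03 in WT (SE 0.15, adjusted p = 2.64e-05) and -0.24 in αERKO (SE 0.15, adjusted p = 0.349).

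Of the ROR genes *Rorb* fell in WT-DES. *Rorb* (RORβ, known from retina and brain; chr19:18930605-19111196, minus strand) was at 2.9, 3.02, 3.14 and 2.53 FPKM in the samples of WT-veh, 0.36, 1.37, 1.9 and 1.76 in those of WT-DES, 2.92, 2.53, 2.2 and 2.91 across αERKO-veh and 3.25, 2.99, 2.58 and 2.91 across αERKO-DES. All WT-DES samples were lower than all others, WT-DES sample 1 by far, and the log2 change of -0.79 (SE 0.18, adjusted p = 0.00125, limma) became -0.54 without that sample. It was -0.51 without the 20 top genes, -1.21 under quantile normalization and -1.26 after length correction, called in each. *Rora*, which encodes the widely expressed RORα, averaged 4.56 ± 0.846 FPKM in WT-veh and 6.46 ± 0.288 in WT-DES, a log2 change of 0.44 with an adjusted p of 0.00305 that stayed under 1.5-fold. That value was 0.81 and called on the scale without the 20 top genes, 0.09 (adjusted p = 0.491) under quantile normalization and -0.08 (adjusted p = 0.348) after length correction. *Rora* was also called higher without WT-veh sample 1, and its difference between the genotypes was not called without WT-veh sample 4.

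The promoters of the receptors were read from RefSeq (GRCm38.p6), as 250 bases before and 50 after each annotated start, for 45 starts of 32 receptors. The letters AGGTCA, the half-site that most nuclear receptors of these classes bind, were searched on both strands and occurred in 17.8% of these windows and in 16.3% of the 32851 promoters of all genes. They are shown in capitals for 3 receptors that rose in WT-DES and had a match, with 30 bases where an annotated exon overlaps and 60 bases elsewhere.
*Nr1d2*, 77 bases before the start, minus strand, chr14:18239151-18239210: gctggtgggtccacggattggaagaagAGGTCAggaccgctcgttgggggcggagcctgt
*Pparg*, 28 bases before the first start, plus strand, chr6:115361104-115361133: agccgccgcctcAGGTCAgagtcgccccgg
*Pparg*, 9 bases before another start, plus strand, chr6:115362319-115362348: ttttatataagggacgcgaggAGGTCAaga
*Thrb*, 184 bases before the start, plus strand, chr14:17660749-17660808: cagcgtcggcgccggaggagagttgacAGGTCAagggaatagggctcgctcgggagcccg
No binding was measured here, and a match describes the letters only.

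In a list of 15 further clock genes, 6 were higher and 2 lower in WT-DES compared with WT-veh, and 2 were higher in αERKO-veh compared with WT-veh. *Bhlhe40*, a repressor in the clock that also responds to many stimuli, averaged 8.19 ± 1.43 FPKM in WT-veh and 29.3 ± 4.87 in WT-DES, *Per2*, a negative limb gene, 1.84 ± 0.396 and 8.47 ± 3.91, and *Dbp*, a clock output gene, 34.9 ± 7.54 and 104 ± 26.8. Their log2 changes were 1.72, 1.67 and 1.53, and none of the 15 was called in αERKO-DES against αERKO-veh by limma, where 1 passed an unadjusted p of 0.05. The hour at which tissue was collected is not given in the sources used here, and levels of these genes depend on it, so time of day and group cannot be told apart.

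Both thyroid hormone receptor genes rose in WT-DES. *Thrb* (TRβ; chr14:17660261-18038090, plus strand) was at 1.62, 1.64, 1.38 and 1.43 FPKM in the samples of WT-veh, 4.27, 4.26, 4.48 and 4.56 in those of WT-DES, 1.88, 3.02, 2.42 and 1.93 across αERKO-veh and 1.57, 1.71, 1.28 and 1.6 across αERKO-DES. WT-DES was separate from all others, and αERKO-veh was separate from both WT-veh and αERKO-DES, which overlapped. The log2 change with DES was 1.10 in WT (SE 0.11, adjusted p = 2.81e-07, limma) and -0.37 in αERKO (SE 0.11, adjusted p = 0.0618), with a difference of 1.47 (SE 0.15, adjusted p = 8.51e-07). Under quantile normalization the change in WT was 0.65 and the difference 0.80, both still called. The αERKO change was called with sample weights and without WT-DES sample 1 or αERKO-veh sample 1.

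*Thra* (TRα; chr11:98740638-98769006, plus strand) was at 48.44, 47.23, 48.68 and 50.65 FPKM in the samples of WT-veh, 68.89, 77.38, 84.63 and 80.53 in those of WT-DES, 38.5, 46.8, 36.18 and 42.56 across αERKO-veh and 38.5, 36.57, 28.07 and 23.69 across αERKO-DES. The WT-DES samples were the highest and the WT-veh samples came next, above every αERKO sample. The log2 change in WT was 0.66 (SE 0.13, adjusted p = 0.000252, limma), and it was 1.18 under quantile normalization and 1.09 without the 20 top genes. *Thra* and *Nr1d1* lie tail to tail on opposite strands and share 263 exonic bases, 5.7% of those of *Thra* and 8.5% of those of *Nr1d1*. Whether strand was used in the counting is not given in the sources used here, so reads in that stretch cannot be assigned to either gene.

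Of 9 genes around thyroid hormone action, 8 were tested, of which 3 were higher and 1 lower in WT-DES compared with WT-veh. *Dio2*, the deiodinase that makes the active hormone within cells, went from 0.473 ± 0.206 FPKM in WT-veh to 11.5 ± 5.46 in WT-DES, while αERKO-veh was at 0.59 ± 0.116 and αERKO-DES at 0.27 ± 0.0141 (log2 change in WT 2.98, SE 0.24, adjusted p = 5.03e-08, limma). *Crym*, a cytosolic hormone-binding protein, went from 9.76 to 4.59 FPKM (log2 change -1.07, groups overlapping). It was also called lower than in WT-veh in αERKO-veh (4.96 FPKM) and αERKO-DES (3.92 FPKM), and its difference between the genotypes was not called (adjusted p = 0.0773).

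The vitamin D receptor rose in WT-DES from a low level. *Vdr* (chr15:97854425-97910630, minus strand) was at 1.24, 1.13, 1.05 and 1.24 FPKM in the samples of WT-veh, 2.77, 7.04, 3.58 and 2.79 in those of WT-DES, 1.32, 1.57, 1.79 and 1.79 across αERKO-veh and 1.29, 1.7, 1.03 and 1.49 across αERKO-DES. All WT-DES samples were above all others, WT-DES sample 2 by the most. The log2 change was 1.15 (SE 0.19, adjusted p = 7.08e-05, limma), and leaving out single samples moved it between 0.90 and 1.26. Under quantile normalization it was 0.70, and neither the difference between the genotypes (1.29 on the deposited scale and 0.61 there, adjusted p = 0.0711) nor αERKO-DES against WT-DES (-1.02 and -0.41, adjusted p = 0.0819) was then called. Of the 6 genes of vitamin D metabolism and calcium transport, 3 were tested, of which 1 was higher and 1 lower. The calcium channel gene *Trpv6* fell from 102 ± 19.7 to 10.4 ± 1.40 FPKM (log2 change -3.16, adjusted p = 3.48e-10), while *S100g*, a calcium-binding protein gene, was at 0.198 ± 0.303 FPKM in WT-veh and 7.11 ± 5.59 in WT-DES, with overlap. Both are also known to respond to other hormones in other tissues. The xenobiotic receptors *Nr1i2* (PXR) and *Nr1i3* (CAR) were at group means of at most 0.0125 and 0.12 FPKM and were not tested. Exons of *Tomm40l* on the opposite strand, a gene at group means of 13.6 to 29.5 FPKM, cover 74.9% of the exonic bases of *Nr1i3*, so reads there cannot be assigned to either gene. Of the 10 genes on the list of FXR, PXR and CAR targets, 4 were tested, with 1 higher and 1 lower.

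The testicular receptors TR2 and TR4, orphan receptors that can pair with each other, moved in opposite directions in WT-DES, although the fall of TR2 was not called on the scale without the 20 top genes (log2 change -0.26). *Nr2c2* (TR4; chr6:92091390-92174294, plus strand) was at 4.54, 5.09, 3.96 and 2.39 FPKM in the samples of WT-veh, 10.5, 11.37, 11.45 and 9.83 in those of WT-DES, 7.06, 10.74, 7.08 and 8.61 across αERKO-veh and 3.22, 5.06, 4.91 and 7.65 across αERKO-DES. WT-veh was below both WT-DES and αERKO-veh without overlap, WT-DES and αERKO-veh overlapped, and αERKO-DES overlapped with WT-veh and with αERKO-veh. The log2 change with DES was 1.27 in WT (SE 0.21, adjusted p = 5.42e-05, limma) and -0.62 in αERKO (SE 0.21, adjusted p = 0.0942), with a difference of 1.89 (SE 0.29, adjusted p = 4.18e-05). The αERKO change was called with sample weights and without αERKO-DES sample 4. Exons of *Mrps25* on the opposite strand cover 30.7% of the exonic bases of *Nr2c2*, and *Mrps25* was at 10.6 FPKM in the samples of WT-veh, 7.15 in those of WT-DES, 8.98 across αERKO-veh and 9.65 across αERKO-DES, lowest where *Nr2c2* was highest. *Nr2c1* (TR2) averaged 15.7 ± 1.46 FPKM in the samples of WT-veh, 9.56 ± 0.611 in those of WT-DES, 18.7 ± 0.427 across αERKO-veh and 21.3 ± 1.91 across αERKO-DES, with a log2 change of -0.66 in WT (SE 0.08, adjusted p = 2.01e-06).

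The most complete loss was that of *Nr2e3*, which encodes the photoreceptor-specific nuclear receptor known for rod development in the retina. *Nr2e3* (chr9:59942771-59960659, minus strand) was at 2.63, 4.23, 2.33 and 3.53 FPKM in the samples of WT-veh, 0.08, 0.02, 0.02 and 0.04 in those of WT-DES, 2.44, 1.92, 1.3 and 2.98 across αERKO-veh and 5.45, 6.58, 4.67 and 2.74 across αERKO-DES. The WT-DES samples were near 0, since 1 fragment of this gene is worth about 0.019 FPKM there, and so only the log2(FPKM + 1) change is given, -1.98 (SE 0.21, adjusted p = 8.16e-07, limma), which was -4.53 with a pseudocount of 0.1. In αERKO it was higher with DES, at a log2 change of 0.87 (SE 0.21, adjusted p = 0.0427), although αERKO-DES sample 4 lay within the αERKO-veh range and the call held in only 4 of the 16 fits that left out 1 sample. The difference between the genotypes was -2.86 (SE 0.30, adjusted p = 1.15e-06). *Nr2e1* (TLX, a receptor of neural stem cells) was listed at 0 in all 16 samples.

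**Figure D3:**
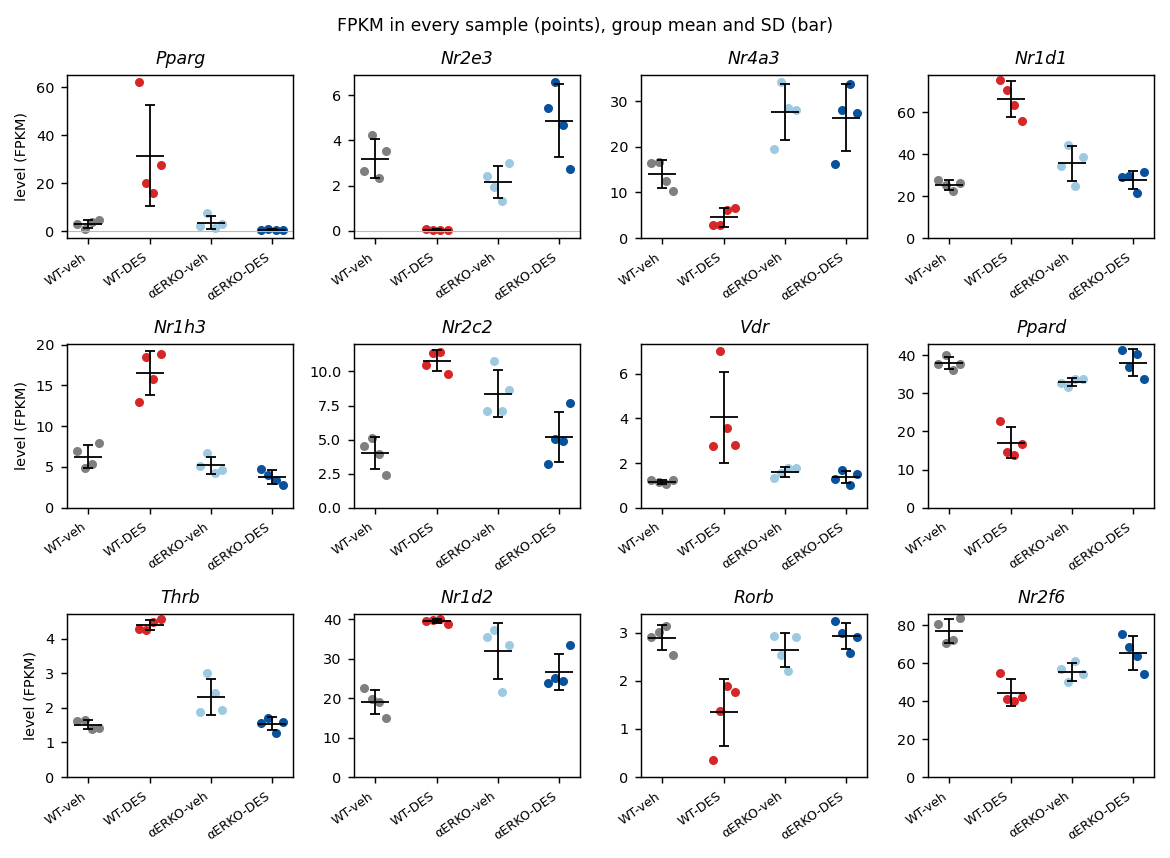
FPKM in each sample for the 12 receptors with the largest log2 change in WT-DES against WT-veh, with points for the 4 samples of a group and a bar for the group mean and SD. WT-DES lies apart from the other groups for each receptor except *Nr2f6*, where it overlaps with both αERKO groups, and *Nr2c2*, where it overlaps with αERKO-veh, and 1 WT-DES sample stands out for *Pparg* (62.28 FPKM), *Vdr* (7.04 FPKM) and *Rorb* (0.36 FPKM).

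Which COUP-TF gene was called in WT-DES depended on the scale. *Nr2f6* was called on the deposited one, and under quantile normalization or without the 20 top genes *Nr2f6* was not called (log2 change -0.34 and -0.35) and *Nr2f1* was (0.53 and 0.91). *Nr2f6* (chr8:71374123-71381960, minus strand) was at 80.4, 70.67, 71.98 and 83.69 FPKM in the samples of WT-veh, 54.8, 41.02, 39.91 and 42.16 in those of WT-DES, 56.91, 49.83, 61.09 and 54.14 across αERKO-veh and 75.11, 68.26, 63.47 and 54.07 across αERKO-DES. WT-DES was lower than WT-veh without overlap, with a log2 change of -0.78 (SE 0.11, adjusted p = 1.73e-05, limma). Exons of *Ocel1* on the opposite strand cover 54.4% of the exonic bases of *Nr2f6*, and *Ocel1* also read lower in WT-DES, at 6.43 ± 0.592 FPKM against 9.09 ± 0.690 in WT-veh. *Nr2f1* (COUP-TFI) averaged 12.8 ± 0.752 FPKM in WT-veh and 19.1 ± 5.53 in WT-DES. Its WT-DES samples 2 to 4 read 18.94 to 24.07 FPKM and sample 1 read 11.43, and without sample 1 the log2 change went from 0.50, just under the 1.5-fold limit, to 0.72, which was called (adjusted p = 0.000129). It was also called after length correction (0.52), with median-ratio scaling and without WT-DES sample 2 or WT-veh sample 1 or 2. *Nr2f2* (COUP-TFII, a marker of mesenchyme) was at 25.1 ± 1.21, 24.8 ± 2.28, 27.5 ± 2.17 and 27.9 ± 2.32 FPKM in the order of WT-veh and WT-DES, then αERKO-veh and αERKO-DES, with a log2 change in WT of -0.02 (SE 0.08), or 0.40 on the scale without the 20 top genes, beside a fibroblast marker sum of 731 to 881 FPKM in WT-veh and 1920 to 2090 in WT-DES.

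In the NR4A family *Nr4a3* fell in WT-DES, and *Nr4a1* and *Nr4a2* were not called. These receptors are made within minutes to hours of many stimuli and are thought to act without a ligand. *Nr4a3* (NOR1; chr4:48045153-48086447, plus strand) was at 16.51, 16.78, 12.46 and 10.35 FPKM in the samples of WT-veh, 2.75, 2.85, 6.14 and 6.66 in those of WT-DES, 19.46, 34.32, 28.62 and 28.16 across αERKO-veh and 16.32, 28.15, 33.8 and 27.44 across αERKO-DES. WT-DES was the lowest group without overlap, αERKO-veh lay above WT-veh without overlap, and 1 αERKO-DES sample fell within the WT-veh range. The log2 change with DES was -1.48 in WT (SE 0.27, adjusted p = 0.000168, limma) and -0.08 in αERKO (SE 0.27, adjusted p = 0.888). The difference between the genotypes, -1.40, was called, but without the 20 top genes it was -0.90 and was not (adjusted p = 0.0699). *Nr4a1* (NUR77) averaged 20.5 ± 6.17 FPKM in WT-veh and 13.9 ± 1.98 in WT-DES, with a log2 change of -0.49 (adjusted p = 0.00634) that stayed under 1.5-fold. It was called lower without WT-veh sample 1 or 3 or WT-DES sample 3, and was -0.08 without the 20 top genes. *Nr4a2* (NURR1) averaged 3.21 ± 0.407 and 2.72 ± 0.381 FPKM, with a log2 change of -0.18 (adjusted p = 0.131) that was -0.66 and called under quantile normalization and 0.15 without the 20 top genes.

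The promoters of the 3 NR4A genes each held 4 copies of TGACG, read on both strands, which are the letters of the cAMP response element half-site. Of the promoter windows of all genes 20.8% held at least 1 copy, and of those of the receptors 28.9%, in 12 genes. A stretch of 60 bases with the most copies is shown for each, with the copies in capitals.
*Nr4a1*, plus strand, chr15:101266596-101266655: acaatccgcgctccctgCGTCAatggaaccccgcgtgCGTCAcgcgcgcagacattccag
*Nr4a2*, minus strand, chr2:57124094-57124153: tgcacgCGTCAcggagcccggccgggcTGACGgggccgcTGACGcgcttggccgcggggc
*Nr4a3*, plus strand, chr4:48045055-48045114: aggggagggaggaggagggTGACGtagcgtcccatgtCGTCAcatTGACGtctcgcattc
All 4 copies stand within the 250 bases before the start in each gene, and of the 3 genes only *Nr4a3* was called in WT-DES.

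Of 12 other immediate early genes, 7 were higher and 1 was lower in WT-DES compared with WT-veh. *Fos* averaged 4.92 ± 1.53 FPKM in WT-veh and 16.2 ± 4.48 in WT-DES (log2 change 1.54), *Egr2* 0.96 ± 0.352 and 5.52 ± 2.75 (1.65), and *Atf3*, the gene that fell, 31.9 ± 6.16 and 12.9 ± 3.65 (-1.26). None of the 12 was called by limma in αERKO with DES, where 4 passed an unadjusted p of 0.05, or in αERKO-veh against WT-veh, where 1 did.

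The oestrogen-related receptors do not bind oestradiol and drive mitochondrial genes with the coactivator PGC-1. They were not called in any comparison in the fit reported here. *Esrra* averaged 35.5 ± 2.98, 28.8 ± 4.93, 31.8 ± 2.19 and 32.9 ± 2.49 FPKM in the order of WT-veh and WT-DES, then αERKO-veh and αERKO-DES, with a log2 change of -0.30 in WT (SE 0.10, adjusted p = 0.0144, limma) that stayed under 1.5-fold and was 0.12 without the 20 top genes. *Esrrg* averaged 1.43 ± 0.3, 0.98 ± 0.312, 1.99 ± 0.340 and 1.22 ± 0.146 FPKM and *Esrrb* did not exceed a group mean of 0.0675 FPKM. *Esrrg* was called lower in WT-DES under quantile normalization, after length correction and without WT-veh sample 3 or WT-DES sample 2 or 4, and lower in αERKO-DES against αERKO-veh with sample weights and without WT-DES sample 1 or αERKO-veh sample 1. Of 12 mitochondrial genes that ERRs act on, 7 were lower and none higher in WT-DES compared with WT-veh. The list was not read without the 20 top genes, a scale that moved the median of all genes by 0.39 (log2). *Atp5b*, an ATP synthase subunit, averaged 604 and 318 FPKM, *Uqcrc1*, a complex III subunit, 208 and 111, and *Perm1*, a muscle regulator of PGC-1 targets, 6.26 and 2.97, with log2 changes of -0.93, -0.91 and -0.89. Marker sums moved with them, for skeletal muscle from 740 to 2080 FPKM in WT-veh to 39.5 to 342 in WT-DES (3 of 11 genes called lower), for smooth muscle from 3070 to 3820 to 833 to 3730 (5 of 7 lower) and for epithelium from 1520 to 1690 to 868 to 1360 (4 of 7 lower and 1 higher). Their part was not tested.

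The receptors of liver, gut and steroid-making tissues were close to absent, apart from *Nr5a2* in WT-DES. *Hnf4a* and *Hnf4g*, master regulators of liver and gut epithelium, reached group means of 0.0925 and 0.0625 FPKM at most, both in WT-DES. *Nr0b1* (DAX1) and *Nr0b2* (SHP), which lack a DNA-binding domain, reached 0.0075 and 0.0625, and *Nr5a1* (SF1), the regulator of gonadal and adrenal steroidogenesis, 0.0525. *Nr5a2* (LRH-1; chr1:136842571-136960448, minus strand) was the closest to the 1 FPKM limit, at 0.16, 0.36, 0.21 and 0.17 FPKM in the samples of WT-veh, 0.6, 1.17, 0.9 and 1.1 in those of WT-DES, 0.15, 0.43, 0.13 and 0.35 across αERKO-veh and 0.08, 0.13, 0.03 and 0.08 across αERKO-DES. Its WT-DES samples were above the other 12, but the gene was not tested. It was tested and called higher with no minimum on FPKM, on the scale without the 20 top genes and without WT-DES sample 1. On that scale and without that sample it passed the minimum only through WT-DES, where it was highest, so those calls add no support. With no minimum *Hnf4a* and *Hnf4g* were called higher too. *Nr6a1* (GCNF, a germ cell receptor) averaged 2.56 ± 0.366, 2.66 ± 0.087, 2.89 ± 0.378 and 3.17 ± 0.315 FPKM and was not called in any comparison on the deposited scale. Among 7 steroidogenic genes 3 were tested and only *Scarb1*, a lipoprotein receptor, was called, rising from 43.1 to 64.7 FPKM, and of 6 genes under HNF4 in other tissues 1 was tested and was not called in WT-DES.

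The RXR partner and coregulator genes were read alongside. *Rxra* rose in WT-DES from 15.4 ± 0.552 to 33.8 ± 10.8 FPKM (log2 change 1.04, SE 0.15, adjusted p = 1.33e-05, limma), while *Rxrb* averaged 38.2 and 32.4 FPKM and *Rxrg* 2.26 and 2.86 and neither was called. Of 9 coregulators, 5 were higher and 1 lower in WT-DES. The corepressor gene *Nrip1* went from 6.62 to 15.4 FPKM (log2 change 1.14) and was likewise called higher in αERKO-veh, at 15.9 FPKM (1.17, adjusted p = 0.0122, limma), with 10.9 in αERKO-DES. The coactivator gene *Ncoa3* went from 9.28 to 19.5 FPKM (0.99) and *Pprc1*, a PGC-1 relative, from 19.5 to 10.3 (-0.87).

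**Figure D4:**
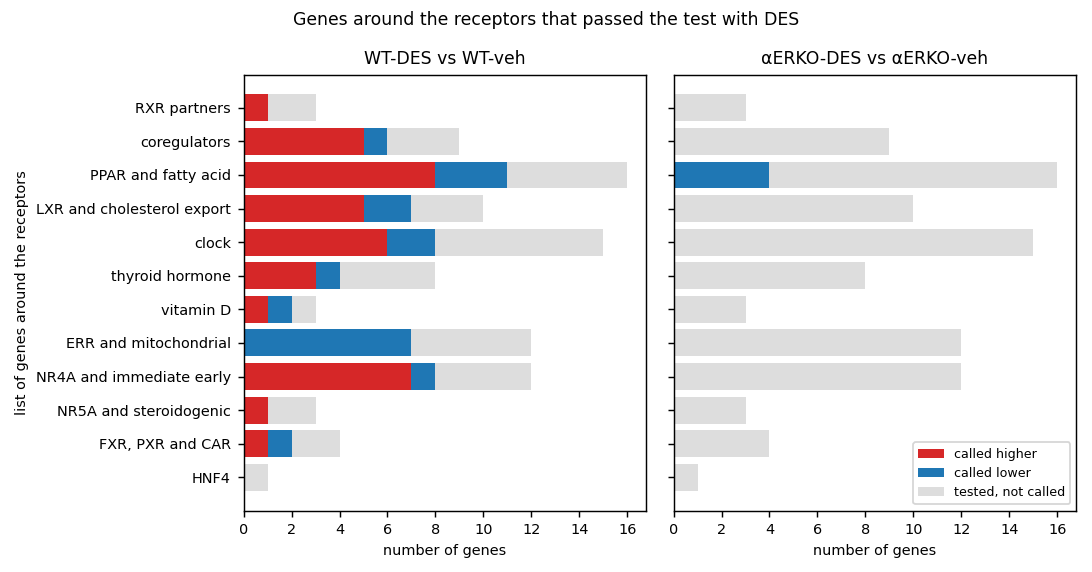
Number of genes called higher, called lower or tested and not called with DES in WT (left) and in αERKO (right) for 12 lists of genes that partner with, or lie downstream of, the receptors. In WT every list except HNF4 holds called genes, up to 8 higher in the PPAR list and 7 lower in the mitochondrial list, whereas in αERKO only the PPAR list does, with 4 lower. Over all genes tested, 28.9% were called higher and 23.9% lower in WT, and 0.0876% and 1.41% in αERKO, a background these counts are to be read against.

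Without DES, 4 receptors were higher in αERKO-veh compared with WT-veh and none was lower, against 4.5% and 2.63% of all genes, and 11 (45.8%) passed an unadjusted p of 0.05, as did 38.9% of all genes. Those called were *Nr2c2* (4 ± 1.17 to 8.37 ± 1.74 FPKM, log2 change 0.92, SE 0.21, adjusted p = 0.00939), *Nr4a3* (14.0 ± 3.15 to 27.6 ± 6.13, 0.93, SE 0.27, adjusted p = 0.023), *Nr1d2* (19.1 ± 3.06 to 32.0 ± 7.04, 0.70, SE 0.15, adjusted p = 0.00921) and *Thrb* (1.52 ± 0.132 to 2.31 ± 0.531, 0.38, SE 0.11, adjusted p = 0.0185, all limma). The groups did not overlap except for *Nr1d2*, where αERKO-veh sample 3 fell within the WT-veh range. *Nr1d1* was called higher as well without the 20 top genes or without αERKO-veh sample 3, and *Thrb* was not called under quantile normalization. A further 5 receptors passed the adjusted p alone, *Nr1d1*, *Rora* and *Nr2c1* higher and *Nr1h2* and *Nr2f6* lower. Of the marker genes, 4 of 11 for skeletal muscle (median log2 change 1.83, 8 at an unadjusted p of 0.05) and 2 of 6 for endothelium were called higher, and 2 of 11 for leukocytes lower. Single samples stood apart in some sums. For skeletal muscle WT-veh sample 4 was at 2080 FPKM (others of the group 740 to 794). For adipose markers αERKO-veh sample 2 was at 1180 FPKM (others of the group 91.8 to 470). The part of these tissues in the receptor changes was not tested.

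All 4 called genes have long transcripts, from 4663 nt for *Nr1d2* to 7647 nt for *Nr2c2*, and the αERKO-veh and WT-veh libraries differed in how levels ran with transcript length. Across the 15051 tested genes with a length, which are not independent replicates, the rank correlation of a library's deviation from the mean with transcript length was between -0.52 and -0.21 in WT-veh and between -0.09 and 0.44 in αERKO-veh. When that trend was taken out of each library, the log2 changes were 0.65 for *Nr2c2* and 0.61 for *Nr1d2*, both still called, and 0.75 for *Nr4a3* and 0.18 for *Thrb*, neither called (adjusted p = 0.0618 and 0.23, limma). Without WT-veh sample 3 or 4, or αERKO-veh sample 2, *Nr4a3* and *Thrb* also lost their call, and *Nr4a3* did so without αERKO-veh sample 4. The WT-DES libraries, at 0.16 to 0.19, also lay apart from WT-veh in the correlation with length. After length correction none of the 15 receptors called in WT-DES against WT-veh was lost, and 17 were called. The log2 change there went from 1.27 to 0.86 for *Nr2c2*, from 1.10 to 0.78 for *Thrb* and from -0.79 to -1.26 for *Rorb*.

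**Figure D5:**
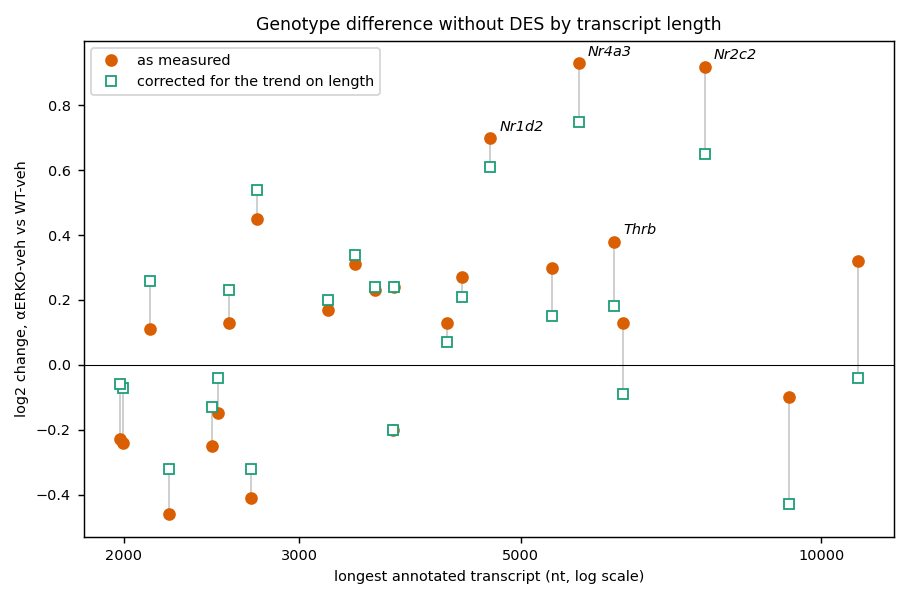
Log2 change of αERKO-veh against WT-veh for the 24 tested receptors by the length of the longest annotated transcript (nt, log axis), as measured (filled points) and after correction for each library's trend on length (open squares), joined by lines. The 4 called receptors are named, and among them the corrected value of *Thrb* falls from 0.38 to 0.18 and that of *Nr2c2* from 0.92 to 0.65.

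With DES in both genotypes, αERKO-DES differed from WT-DES in 15 receptors, 6 higher and 9 lower, against 23.7% and 29.6% of all genes. Without the 20 top genes the counts were 5 higher and 12 lower, and under quantile normalization 9 and 8. This comparison shares its WT-DES samples with the one within WT, so its values are not independent of those. Of the 15 receptors called within WT, *Nr1d2* and *Nr2f6* were not called here, both with ratios under 1.5, and *Nr2f1* (log2 change -0.66) and *Nr4a1* (0.59) were. *Nr1d2* was called under median-ratio scaling, quantile normalization, without the 20 top genes and without αERKO-DES sample 4. *Nr2f6* was called without WT-DES sample 1 or αERKO-DES sample 4. *Esrrg* and *Nr4a2* were called higher under quantile normalization and after length correction, *Nr4a2* also without WT-DES sample 2 or 4 or αERKO-DES sample 1. *Nr6a1* was called higher under quantile normalization and *Rora* lower without the 20 top genes. The *Nr4a1* call was lost without WT-DES sample 1, under median-ratio scaling, after length correction (0.53) and without the 20 top genes (0.23). That of *Ppara* was lost without WT-DES sample 1, where its log2 change went from -0.63 to -0.36, under quantile normalization and with only the 2 groups.

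αERKO-DES against WT-veh gave 2 receptors, both lower, against 1.21% of all genes higher and 1.97% lower. *Thra* was at 31.7 ± 7.01 FPKM against 48.8 ± 1.42 (log2 change -0.63, SE 0.13, adjusted p = 0.0103, limma), and *Nr1h3* at 3.74 ± 0.837 against 6.25 ± 1.40 (-0.61, SE 0.17, adjusted p = 0.0397), both without overlap. *Nr2c1* passed the adjusted p (0.00604) with a change of under 1.5-fold. *Pparg* averaged 0.558 ± 0.278 FPKM against 3.10 ± 1.56 and its groups did not overlap, but the adjusted p was 0.0724. *Pparg* was called lower and *Nr4a3* higher without WT-DES sample 1, with sample weights and with only the 2 groups, *Pparg* also with a pseudocount of 0.1 and without WT-veh sample 2 or αERKO-veh sample 2, and *Nr4a3* without αERKO-DES sample 1. Marker genes fell in the same comparison, with 7 of 9 adipose (median log2 change -3.30), 3 of 6 fibroblast and 2 of 11 leukocyte genes called lower and none of these higher. The adipose sum was 226 to 1160 FPKM in WT-veh and 17.5 to 62.9 for αERKO-DES, and the part of these cells in the receptor changes was not tested. The call of *Thra* was lost without αERKO-DES sample 3 or 4, and that of *Nr1h3* held in 9 of the 16 fits that left out 1 sample. Both were also lost after correction for transcript length and on the scale without the 20 top genes.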

How the data were processed

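The expression table was made by the authors from paired-end reads of Illumina libraries, which per the submitters' processing notes went through TopHat2 2.0.4 (genome mm10) and Cufflinks 2.0.2, and its values were deposited as FPKM with 2 decimals for 16 samples. Gene annotation and use of strand are not given in the sources used here. No column was left unused and no 2 columns were identical. Gene-level FPKM mixes isoforms, and the deposited values carry no read counts, so depth was only estimated.

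Samples were grouped by their titles, 4 per group. The receptors and the gene lists were chosen with earlier results of these data known. One limma 3.58.1 model (R 4.3.3) of group means was fitted to log2(FPKM + 1) of 15988 genes with a mean above 1 FPKM in at least 1 group, with a trend on mean level, and p-values were Benjamini-Hochberg adjusted over those genes. Fold changes on this scale understate changes of low genes. A gene was called when the adjusted p did not exceed 0.05 and its mean FPKM differed at least 1.5-fold (for the difference between the DES effects, a difference of at least the log2 of 1.5). The scripts were tested on simulated data.

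All 35 receptors are accounted for. Values of every sample are printed for receptors called in αERKO-veh, αERKO-DES against αERKO-veh or αERKO-DES against WT-veh, and for the 12 with the largest change in WT. Of each list, up to 3 called genes with the largest change in WT and at least 5 FPKM are named, besides the RXR genes, *Nr5a2* being added after its values were seen. The values of 1 listed gene are not reported here. Transcript lengths and positions came from GENCODE M21 (GRCm38). The alternatives tried were 13 other settings and 16 fits that each left out 1 sample. They were read for the receptors, and the gene lists were read on the deposited scale only. Figures were drawn with matplotlib 3.10.9 in Python 3.11.15.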

Additional observations from a re-analysis of the deposited data

Results flagged for a closer look

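In 5 of 96 groups of 4 samples, 1 sample lay apart from the other 3 by Dixon's test, which chance gives in about 1 in 20 groups. In αERKO-DES sample 4, *Nr1d2* was at 33.42 FPKM where the others were at 23.78 to 25.08, and *Rora* at 6.03 where the others were at 4.49 to 4.75. In WT-DES sample 2, *Nr2c1* was at 8.65 FPKM (others 9.84 to 9.92). In WT-DES sample 1, *Nr2f6* was at 54.8 FPKM (others 39.91 to 42.16) and *Ppara* at 5.80 (others 1.80 to 2.43).

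The change with DES differed between WT and αERKO, by limma's test of the difference itself, for 18 receptors. WT minus αERKO, it was more positive (log2) by 4.31 for *Pparg*, 1.89 for *Nr2c2*, 1.68 for *Nr1d1*, 1.66 for *Nr1h3*, 1.47 for *Thrb*, 1.29 for *Vdr*, 1.27 for *Nr1d2*, 1.04 for *Thra*, 0.95 for *Ppara*, 0.82 for *Nr2f1* and 0.66 for *Rora*. The difference was -2.86 for *Nr2e3*, -1.40 for *Nr4a3*, -1.33 for *Ppard*, -1 for *Nr2f6*, -0.90 for *Rorb*, -0.83 for *Nr2c1* and -0.66 for *Nr1h2*. The call was lost under quantile normalization for *Rora*, *Nr1h2*, *Vdr*, *Nr2f6* and *Ppara*, without the 20 top genes for *Rorb*, *Nr1h2*, *Nr2c1*, *Nr2f6* and *Nr4a3*, and after length correction for *Rora* and *Nr1h2*. Against 29.6% and 26.9% of all genes, these are 45.8% and 29.2% of the tested receptors.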

How the results depend on the processing

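The counts of receptors called in WT-DES against WT-veh (15), in αERKO-DES against WT-DES (15) and in the difference between genotypes (18) stayed within 1.5-fold under every setting run, though not always with the same genes. Of the 4 called in αERKO-veh against WT-veh, 2 were left after correction for transcript length and at an adjusted p of at most 0.01. For the 1 called in αERKO-DES against αERKO-veh the count was 2 with a pseudocount of 0.1, 5 with sample weights, and 0 with no minimum on FPKM, a minimum of 5 FPKM, quantile normalization, rescaling without the 20 top genes, an adjusted p of at most 0.01 or only the 2 groups. For the 2 called in αERKO-DES against WT-veh it was 1 with no minimum or quantile normalization, 5 with sample weights, 4 with only the 2 groups, and 0 with rescaling, with length correction or at an adjusted p of at most 0.01. Leaving out 1 sample gave 2 to 5, 0 to 4 and 0 to 4 in these 3 comparisons. At a minimum of 5 FPKM 16 receptors were tested in place of 24. Of 144 values of a receptor in a comparison, 4 changed sign where the change was called as reported or under the alternative: *Nr6a1* in WT-DES against WT-veh to -0.44, *Ppara* in αERKO-DES against WT-DES to 0.00 and *Nr1h2* in the difference between genotypes to 0.05 under quantile normalization, and *Rora* in that difference to -0.04 after length correction. Another 31 changed sign under some setting without being called either way. The cause was not tested.

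Nothing in the labels says that the sample numbers shared by the groups pair the samples. Deviations of same-numbered samples had correlations of -0.21 to 0.28. Samples with different numbers were not compared, so these values cannot decide whether there was pairing. With the replicate number as a block the counts were 15, 4, 1, 15 and 18, and 1 for αERKO-DES against WT-veh, where *Nr1h3* was lost.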
